A study of Mus musculus with 8 samples.

Results

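The genes described here encode 9 coregulators, the proteins through which nuclear receptors such as the retinoid X receptors (RXRs) act on chromatin: the coactivators Ncoa1, Ncoa2, Ncoa3, Crebbp, Ep300 and Med1, and the corepressors Nrip1, Ncor1 and Hdac3. They were taken by name from 21631 protein-coding genes on 20 chromosomes, and their windows, from 20 kb before to 20 kb after each gene, were examined for called peaks in 8 libraries. The assay was CUT&RUN, which sequences the DNA that an antibody-guided nuclease cuts free from marked nucleosomes, in mouse haematopoietic stem cells (HSCs), the rare marrow cells that renew the blood. The RXRKO cells carried deleted alleles of both Rxra and Rxrb with Vav-Cre, a Cre recombinase driven in blood cells, and the WT cells came from mice in which both receptor genes were functional. The sample labels give WT mice as Vav-Cre positive, whereas the design text describes them as carrying the floxed alleles and names Cre for the RXRKO mice alone, so whether the WT cells carried Cre is not settled. All mice were C57BL/6 and about 10 months old, cells were sorted as Lin-cKit+Sca1+CD48-CD150+ and pooled from 4 or 5 mice, and 7500 HSCs entered each assay. H3K4me1, found at enhancers and promoter flanks, had 2 RXRKO and 2 WT libraries. H3K4me3, found at promoters, and H3K27ac, found at active promoters and enhancers, had 1 library per genotype each and therefore no replicates.

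An RXR bound to DNA with a partner receptor exchanges repressing and activating complexes. Without ligand, the corepressor NCOR1 holds the receptor pair together with the histone deacetylase HDAC3, which it also activates. Ligand changes the receptor surface so that coactivators of the NCOA (p160) family bind, bring the acetyltransferases CBP (Crebbp) and p300 (Ep300), which place H3K27ac at enhancers, and are joined by the Mediator complex through its subunit MED1. NRIP1 also binds receptors that hold ligand, but recruits repressors and so limits activation.

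The lists held 147698 and 165128 H3K4me1 peaks in RXRKO replicates 1 and 2 and 149377 and 159713 in WT replicates 1 and 2. They held 58136 H3K4me3 peaks in RXRKO and 47835 in WT, and 64849 H3K27ac peaks in RXRKO and 74287 in WT. No read totals are in the lists, so the depth is unknown. In Rxrb, a stretch of 781 bp had H3K4me1 in both WT libraries and no peak of any of the 3 marks in RXRKO. The longest such stretch in Rxra was 76 bp. An H3K4me3 peak was called at the start of 10 of 10 HSC marker genes in each genotype, while H3K27ac was called at 6 in RXRKO and 7 in WT and was absent at Hlf, Mecom and Gata2 in both. In each genotype H3K4me3 was also called at 1 of 7 granulocyte and monocyte markers, 3 of 5 erythroid markers and 3 of 4 markers of stroma and endothelium. None of 5 genes silent in blood had an H3K4me3 or H3K27ac peak at its start in either genotype. Among 6 lymphoid markers an H3K4me3 peak at the start was called for 1, Lck, in RXRKO and 0 in WT, while H3K27ac was called at Lck in both. H3K27ac was called at 2 of 7 granulocyte and monocyte markers in RXRKO and 3 in WT. It was called at 4 of 5 erythroid markers in RXRKO and 3 in WT, and at 2 of 4 markers of stroma and endothelium in each. The part of other cell types in the results was not tested, and in such bulk samples fewer cells with a mark and less mark per cell cannot be told apart.

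Promoter sequences are shown first. RefSeq's table (GRCm38.p6, the assembly that mm10 denotes) held 8 starts for 6 of the 9 genes. For these 6 genes the promoter marks were counted around the 5′ end of the annotated gene. That end lay 553 bp from the RefSeq start of Crebbp and 407 bp from that of Med1. Each line gives the 250 bases before a start, 5′ to 3′ in the direction of the gene, with capitals marking matches to GGGCGG, the GC box bound by SP factors, on either strand. Ncoa1 (chr12:4477183-4477432, minus strand) and Ep300 (chr15:81585964-81586213, plus strand) show the GC-rich kind, Nrip1 (chr16:76373828-76374077, minus strand) shows the exception, and Ncor1 shows an outer start (chr11:62457333-62457582, minus strand) beside an inner one (chr11:62438516-62438765, minus strand).
Ncoa1: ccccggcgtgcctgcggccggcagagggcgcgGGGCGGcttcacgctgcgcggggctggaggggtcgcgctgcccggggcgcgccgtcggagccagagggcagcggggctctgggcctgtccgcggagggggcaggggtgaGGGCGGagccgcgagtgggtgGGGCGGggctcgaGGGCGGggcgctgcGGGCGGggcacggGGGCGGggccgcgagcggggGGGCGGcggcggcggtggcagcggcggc
Ep300: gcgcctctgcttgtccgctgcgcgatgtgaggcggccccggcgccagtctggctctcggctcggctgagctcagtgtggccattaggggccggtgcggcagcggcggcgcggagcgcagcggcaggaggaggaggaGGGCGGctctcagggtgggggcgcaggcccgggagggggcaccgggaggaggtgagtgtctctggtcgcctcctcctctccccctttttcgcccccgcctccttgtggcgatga
Nrip1: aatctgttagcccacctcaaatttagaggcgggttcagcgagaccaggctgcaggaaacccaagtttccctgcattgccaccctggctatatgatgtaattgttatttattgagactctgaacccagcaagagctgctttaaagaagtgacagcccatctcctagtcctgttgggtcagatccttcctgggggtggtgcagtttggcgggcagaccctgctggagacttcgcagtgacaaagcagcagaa
Ncor1 outer start: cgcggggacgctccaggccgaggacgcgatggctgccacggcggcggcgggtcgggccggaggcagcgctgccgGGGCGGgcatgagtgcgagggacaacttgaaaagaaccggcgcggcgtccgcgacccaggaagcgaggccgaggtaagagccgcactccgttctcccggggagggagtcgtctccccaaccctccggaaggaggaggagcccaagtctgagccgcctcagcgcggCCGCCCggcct
Ncor1 inner start: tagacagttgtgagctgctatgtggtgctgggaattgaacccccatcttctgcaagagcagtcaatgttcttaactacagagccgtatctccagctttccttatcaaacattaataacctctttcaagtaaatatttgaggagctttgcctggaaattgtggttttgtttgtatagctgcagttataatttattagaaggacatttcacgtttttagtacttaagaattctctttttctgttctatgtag

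The promoter of Ncoa1 was 85.6% G or C with 40 CpG pairs and 7 GC boxes, and that of Ep300 was 73.2% G or C with 25 CpG pairs and 1 GC box. Crebbp, the close relative of Ep300, had 44 CpG pairs and 2 overlapping GC boxes. The 250 bases before the outermost start of Nrip1 held 4 CpG pairs, whereas those before its second start, 778 bp into the gene, held 32. The median over all 32851 promoters in the table was 6 CpG pairs and 52.4% G or C. GGGCGG was found at 6 of the 8 starts, against 32.7% of all promoters. CCAAT was found at 1 of 8, before Med1, against 33.8%. TATAAA was found at 0 of 8 against 12.4%, the MYC E-box CACGTG at 0 of 8 against 6.02%, and the nuclear receptor half-site AGGTCA at 0 of 8 against 14.0%. Each motif was searched on both strands, and GGGCGG matches overlap each other before Crebbp and at the second Nrip1 start.

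Every coregulator gene carried both promoter marks in both genotypes. A peak of H3K4me3 and one of H3K27ac lay within 1 kb of the start of 9 of 9 genes in RXRKO and in WT, where 52.9% of all genes met the same rule. For Ncoa2, Ncoa3 and Hdac3, whose strand is not in the tables used, the start was taken as the gene end with more H3K4me3, so H3K4me3 there is partly given by the rule. H3K4me3 covered between 983 and 2000 bp of the 2 kb around each start in RXRKO and between 973 and 2000 bp in WT. H3K27ac covered between 560 and 1776 bp in RXRKO and between 600 and 1712 bp in WT. H3K4me1 was called near the start of 7 and 9 genes in RXRKO replicates 1 and 2 and of 6 and 9 in WT replicates 1 and 2. Over all genes the shares were 65.7% and 69.1% in RXRKO and 66.1% and 69.0% in WT, also lower in replicate 1. The genes among the 9 without one were Ep300 in both replicate 1 libraries, Ncor1 in RXRKO replicate 1, and Ncoa1 and Crebbp in WT replicate 1. A peak in all 8 libraries was present at 5 of the 9 starts, against 50.0% of all genes.

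The starts differed in how far H3K4me1 gave way to H3K4me3. At the start of Ep300, H3K4me3 covered all 2000 bp in both genotypes, while H3K4me1 covered 0 and 150 bp in RXRKO replicates 1 and 2 and 0 and 327 bp in WT replicates 1 and 2. Med1 and Hdac3 were the opposite case, Med1 with 1312 and 1431 bp of H3K4me1 in RXRKO and 1372 and 1274 bp in WT. H3K4me3 covered 1414 bp at the same start in RXRKO and 1343 bp in WT. Med1 also had the highest authors' fold over background of the 9 promoters in H3K4me3, 11.1 in RXRKO and 11.4 in WT.
The H3K4me3 peak of Nrip1 was 3429 bp wide in RXRKO and 3514 bp in WT and covered its second, CpG-rich start as well. The peak of Ep300 was 3274 bp wide in RXRKO and 3270 bp in WT. With 1 library per genotype the error of these widths is not known. The H3K27ac peak at the start of Hdac3 was 1128 bp wide in RXRKO and 988 bp in WT.
At the inner start of Ncor1, 18899 bp from the outer end, H3K4me3 and H3K27ac covered 0 bp in either genotype, and H3K4me1 covered 703 and 990 bp in RXRKO and 1019 and 680 bp in WT. The outer start carried 2000 bp of H3K4me3 in both genotypes.

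The length covered by H3K4me1 asks whether loss of the receptors changed the enhancer landscape of the genes that serve them, and no coregulator gene passed the test. Genes were tested with limma on log2 of the covered length plus 1000 bp, centred on each library's median. The log2 difference, RXRKO minus WT, lay between −0.12 for Ncoa3 and 0.10 for Hdac3. In limma's fit of 17760 genes, 0 rose (0.0%) and 0 fell (0.0%) at an adjusted p under 0.05. Before adjustment 1051 had p under 0.05. Of the 9 coregulator genes, 0 passed and 0 had an unadjusted p under 0.05. The values of 7 of the 9 lay above 0, with a median of 0.02, against a median of −0.004 over all genes. Nothing in the labels shows that replicates were sorted from different mice, so p measures only the spread between libraries.

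**Figure D1:**
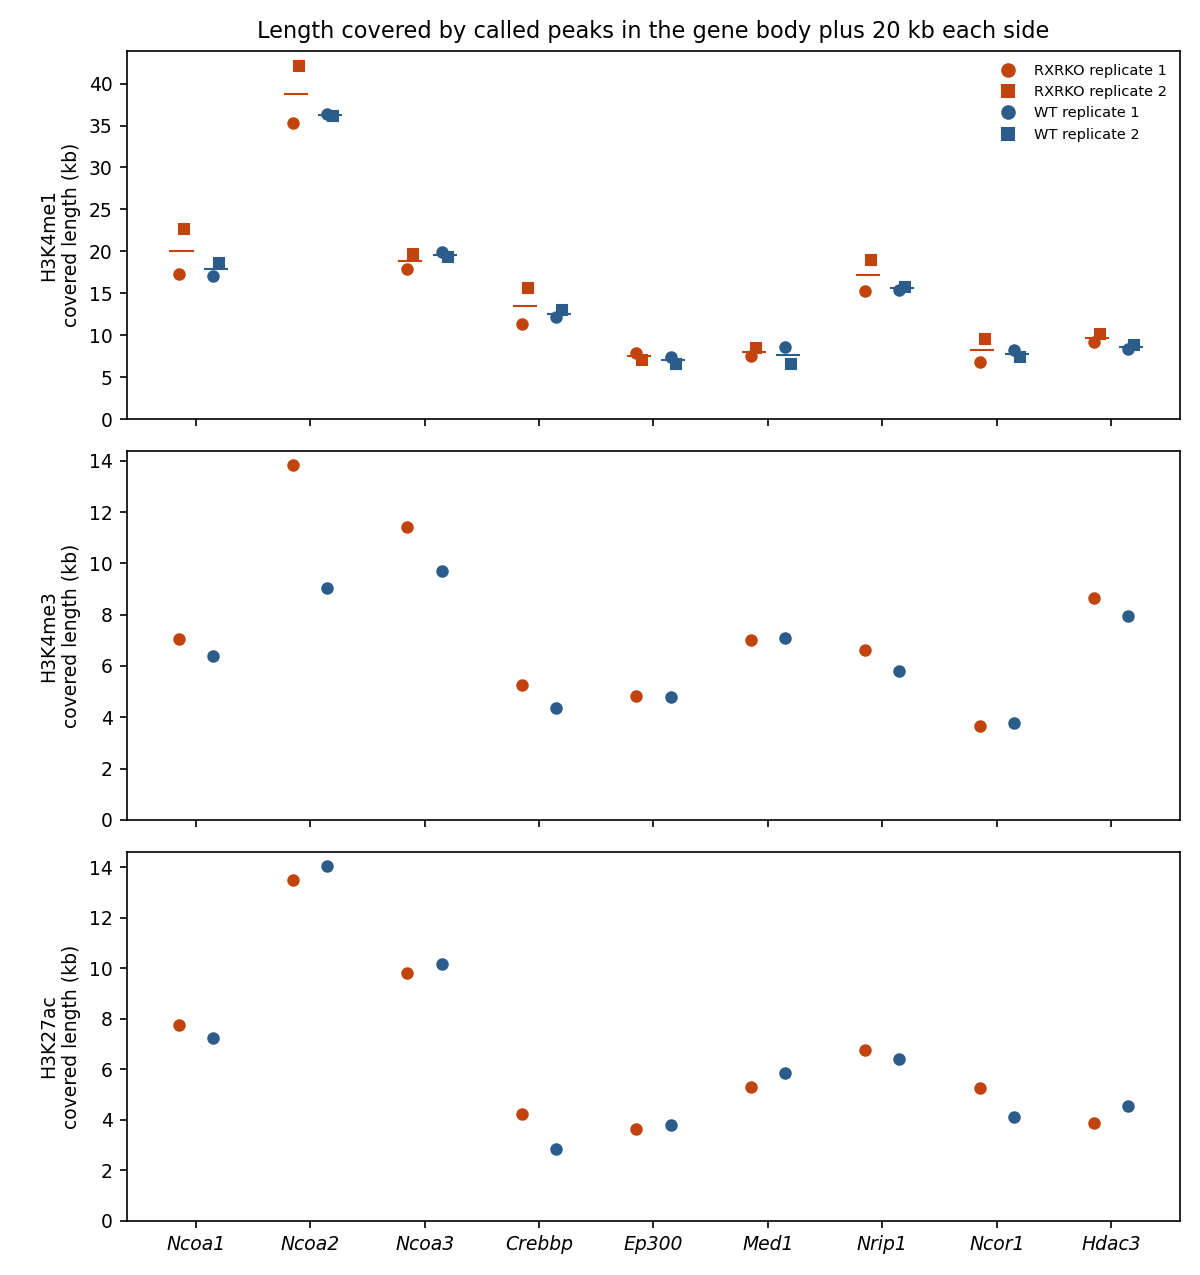
Length covered by called peaks (kb, vertical axes) in the window of each coregulator gene for H3K4me1, H3K4me3 and H3K27ac, with RXRKO libraries left of WT libraries. Points are libraries (circles replicate 1, squares replicate 2) and short lines are means of 2 libraries. For H3K4me1 the RXRKO libraries of Ncoa2 fall on both sides of the WT libraries, at 35300 and 42133 bp in RXRKO against 36411 and 36155 bp in WT, and for H3K4me3 Ncoa2 has the widest gap, 13850 bp in RXRKO and 9036 bp in WT.

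The NCOA family genes, which encode the coactivators that dock directly on ligand-bound receptors, differed among themselves in H3K4me1. Ncoa2 (chromosome 1, 13139105 to 13374227) had 35300 and 42133 bp in RXRKO replicates 1 and 2 and 36411 and 36155 bp in WT replicates 1 and 2. In base pairs the RXRKO libraries fell on both sides of the WT libraries. After centring the groups overlapped, and the log2 difference was 0.03 (SE 0.066, limma adjusted p = 0.998).
Ncoa3 (chromosome 2, 165992637 to 166073242) had 17876 and 19722 bp in RXRKO and 19907 and 19285 bp in WT. After centring, both RXRKO libraries lay below both WT libraries, as in 17.6% of all genes, with differences of −0.13 within replicate 1 and −0.10 within replicate 2 (log2 −0.12, SE 0.072, limma adjusted p = 0.932).
Ncoa1 (chromosome 12, 4247362 to 4477206) had 17298 and 22682 bp in RXRKO and 17123 and 18603 bp in WT, and its groups overlapped after centring (log2 0.08, SE 0.074, limma adjusted p = 0.998). Per length of window, H3K4me1 covered on average 15.9% for Ncoa3, 13.6% for Ncoa2 and 7.01% for Ncoa1, against a median of 8.09% over all genes. The H3K4me1 density of Ncoa3 lay between the 84.1 and 92.3 percentiles of all genes in the 4 libraries and that of Ncoa1 between the 42.4 and 47.0 percentiles, so these 2 ranges did not overlap.

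The acetyltransferase genes and Med1 gave small differences whose sign was not the same in both replicates. Crebbp (chromosome 16, 4081334 to 4213957) had 11382 and 15645 bp in RXRKO and 12135 and 13020 bp in WT (log2 0.02, SE 0.083, limma adjusted p = 0.998). Ep300 (chromosome 15, 81586209 to 81652077) had 7905 and 7084 bp in RXRKO and 7428 and 6632 bp in WT (log2 0.02, SE 0.123, limma adjusted p = 0.998).
Both pairs of groups overlapped after centring. Med1 (chromosome 11, 98152154 to 98193313) had 7588 and 8491 bp in RXRKO and 8563 and 6625 bp in WT, with a difference of −0.14 within replicate 1 and 0.18 within replicate 2. Crebbp and Ep300 were alike in density, at 7.56% and 6.86% of their windows, with all-gene percentiles from 44.4 to 50.4 for Crebbp and from 38.1 to 49.7 for Ep300 over the 4 libraries, ranges that overlap.

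Among the corepressor genes, Nrip1 and Hdac3 had both RXRKO libraries above both WT libraries after centring, as did 15.7% of all genes. Nrip1 (chromosome 16, 76287403 to 76373827) had 15243 and 19018 bp in RXRKO and 15411 and 15786 bp in WT. Its difference was 0.0006 within replicate 1 and 0.12 within replicate 2, so the excess lay in replicate 2 (log2 0.06, SE 0.07, limma adjusted p = 0.998).
Hdac3 (chromosome 18, 37936971 to 37955015) had 9219 and 10167 bp in RXRKO and 8318 and 8831 bp in WT, with 0.15 and 0.05 within replicates 1 and 2 (log2 0.10, SE 0.079, limma adjusted p = 0.988). Ncor1 (chromosome 11, 62315663 to 62457414) had 6829 and 9582 bp in RXRKO and 8260 and 7390 bp in WT, and its within-replicate differences were opposite, −0.23 and 0.20. Ncor1 was the sparsest of the 9 genes, with H3K4me1 over 4.41% of its window, and Hdac3 was second to Ncoa3 with 15.7%. The windows of 8 of the 9 genes also reach into or hold other genes, 4 of them beside Hdac3 (Diaph1, Rell2, Fchsd1 and Arap3), and Nrip1 alone has none. In the Hdac3 window, 1 of the 15 regions of merged H3K4me1 peaks touched Hdac3 itself, so its density describes the window more than the gene. With a 5 kb window the H3K4me1 log2 difference of Hdac3 was 0.035.

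**Figure D2:**
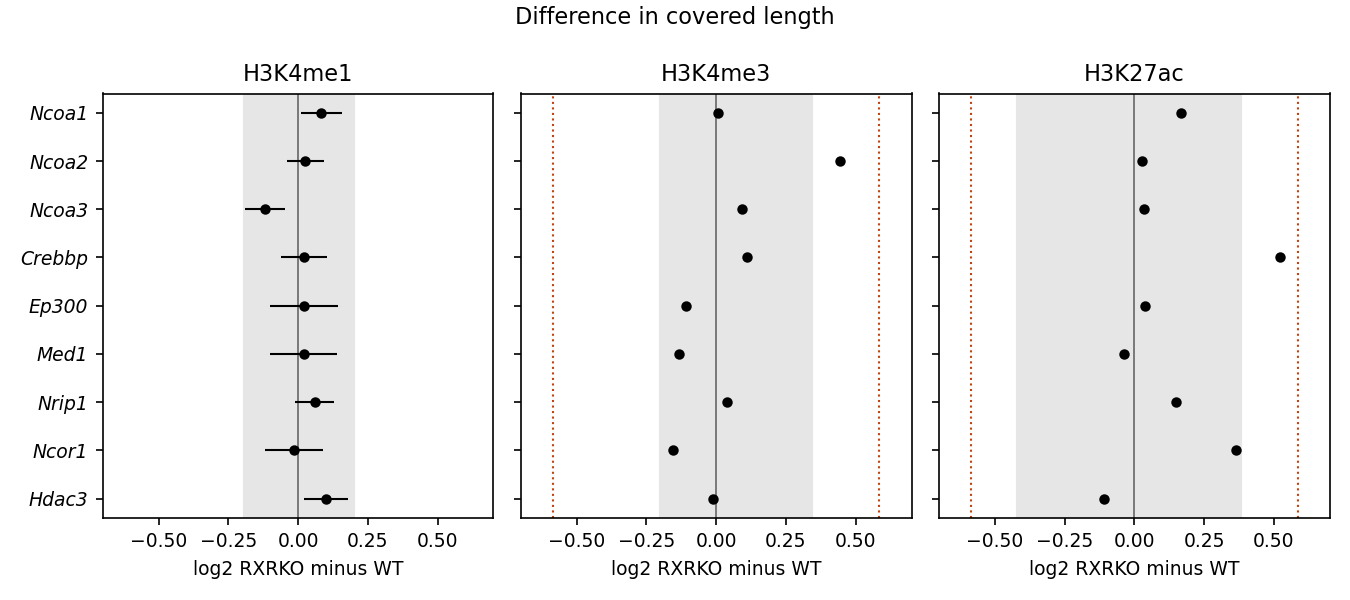
Log2 difference in covered length, RXRKO minus WT, for each coregulator gene and mark. Bars on H3K4me1 points are standard errors from limma with 2 libraries per genotype, the other marks have 1 library per genotype, grey bands hold the middle 90% of all genes, and dotted lines mark 1.5-fold. All 9 genes lie inside the band for H3K4me1, while Ncoa2 lies outside it for H3K4me3 and Crebbp for H3K27ac.

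For H3K4me3, no coregulator gene passed 1.5-fold in covered length, and Ncoa2 came nearest. Of 16649 genes compared, 1.11% were past 1.5-fold higher in RXRKO and 0.108% lower, and of the 9 coregulator genes 0 were higher and 0 lower. Ncoa2 had 13850 bp in RXRKO and 9036 bp in WT, a log2 difference of 0.44 after centring, at the 97.3 percentile of all genes. The other 8 genes lay between −0.16 for Ncor1 (3658 bp in RXRKO and 3767 bp in WT) and 0.11 for Crebbp (5278 bp in RXRKO and 4348 bp in WT). Med1 had 7021 bp in RXRKO and 7091 bp in WT. Hdac3, whose window had the densest H3K4me3 of the 9 at 14.3%, had 8657 bp in RXRKO and 7943 bp in WT. Of the 7 H3K4me3 regions in the Hdac3 window, 1 touched Hdac3 itself, as did 1 of the 7 H3K27ac regions there. Ncoa1 had 7064 bp in RXRKO and 6390 bp in WT, Ncoa3 had 11418 bp in RXRKO and 9697 bp in WT, and Nrip1 had 6618 bp in RXRKO and 5821 bp in WT. The p300 gene Ep300 had 4821 bp in RXRKO and 4773 bp in WT. Over all genes the median covered length per window was 3212 bp in RXRKO and 2880 bp in WT. The log2 differences are centred for such offsets, so Ep300 stood at −0.11 and Hdac3 at −0.01 despite more base pairs in RXRKO. After centring, 5 of the 9 lay above 0. The median log2 difference of the 9 was 0.005, against −0.04 over all genes.

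The H3K4me3 excess in the window of Ncoa2 lay away from its promoter, in part in short peaks called in RXRKO alone. The promoter peak itself was 1642 bp wide in RXRKO and 1691 bp in WT. In the window of Ncoa2, 18 merged H3K4me3 regions were found, of which 10 were called in both genotypes, 8 in RXRKO alone and 0 in WT alone. The 8 regions were between 317 and 534 bp wide, all lay more than 1 kb from the start used for any gene, and each overlapped H3K4me1 in all 4 libraries. The one with the highest -log10 q, 10.6, lay at 13171185 to 13171718, 202776 bp into the gene, and carried H3K27ac over 534 bp in RXRKO and 534 bp in WT. Another, at 13125062 to 13125482, lay beside the gene, over Prdm14. Regions called in both genotypes differed in covered length in both directions. H3K4me3 covered 1527 bp in RXRKO and 877 bp in WT at 13161330 to 13162856, but 585 and 645 bp at 13154497 to 13155141. Over all 9 genes, 18 of 68 H3K4me3 regions were called in RXRKO alone (26.5%, against 22.2% of all regions) and 2 in WT alone (2.94%, against 4.22%). After Ncoa2, Ncoa3 held the most in RXRKO alone, 5 of its 16. Of the 18, 17 overlapped H3K4me1 in all 4 libraries and 8 overlapped H3K27ac in both genotypes, and RXRKO holds more H3K4me3 peaks over the whole genome. With both lists cut to equal length by -log10 q, 8 of 58 regions were in RXRKO alone (13.8%, against 10.9% of all regions) and 4 in WT alone (6.9%, against 9.69%). The log2 difference of Ncoa2 was then 0.32.

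**Figure D3:**
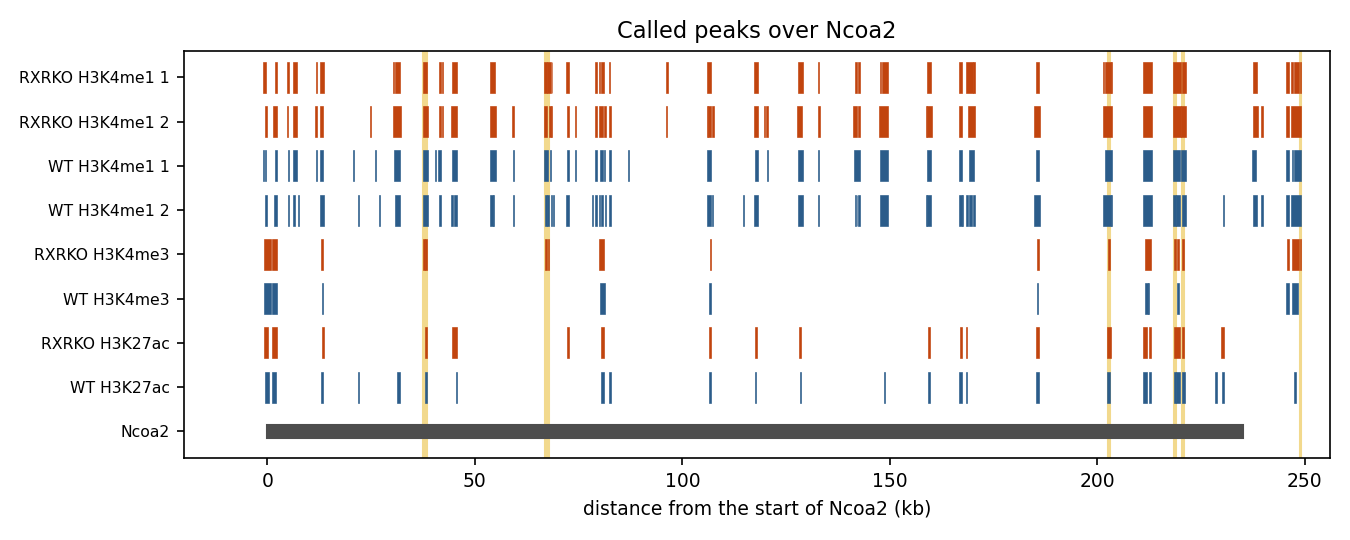
Called peaks over the window of Ncoa2 in the 8 libraries, RXRKO in orange and WT in blue, against the distance from the start of the gene (kb). The grey bar is the gene, and the shaded bands are the 8 regions with H3K4me3 in RXRKO alone, which lie on H3K4me1 peaks of all 4 libraries.

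H3K27ac, the mark that CBP and p300 place, also gave no coregulator gene past 1.5-fold, and the widest difference was at Crebbp itself. Of 15449 genes compared, 1.29% were past 1.5-fold higher in RXRKO and 1.84% lower, and of the 9 coregulator genes 0 were higher and 0 lower. Crebbp had 4205 bp in RXRKO and 2836 bp in WT (log2 0.52, 1.43-fold, the 98.2 percentile of all genes). It passed 1.5-fold with peaks of a -log10 q of at least 5 (log2 0.59), where 1.84% of genes were past it, and with a pseudocount of 100 bp (log2 0.65), where 3.32% were. Ncor1 followed with 5241 bp in RXRKO and 4124 bp in WT (log2 0.37), and Hdac3 was the lowest with 3873 bp in RXRKO and 4556 bp in WT (log2 −0.11). The other NCOA and acetyltransferase genes lay closer to 0: Ncoa1 had 7755 bp in RXRKO and 7248 bp in WT, Ncoa2 had 13472 bp in RXRKO and 14030 bp in WT, and Ep300 had 3642 bp in RXRKO and 3776 bp in WT. Ncoa3 had 9804 bp in RXRKO and 10153 bp in WT, Nrip1 had 6748 bp in RXRKO and 6384 bp in WT, and Med1 had 5305 bp in RXRKO and 5843 bp in WT. The order of the genes moved with the setting. At a -log10 q of at least 5, the log2 difference was 0.53 for Ncoa1 and 0.175 for Ncor1. With the same number of peaks it was 0.39 for Nrip1 and 0.31 for Ncor1. With a 50 kb window it was 0.50 for Ncor1 and 0.45 for Crebbp. Over all genes the median covered length per window was 2256 bp in RXRKO and 2468 bp in WT. The log2 differences are centred for such offsets, so Ncoa2, Ncoa3 and Ep300, with fewer base pairs in RXRKO, had values of 0.03, 0.03 and 0.04. After centring, values above 0 were found for 7 of the 9, with a median of 0.04, against 0.008 over all genes.

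Most of the difference at Crebbp came from 1 element inside the gene. Of the 1369 bp more H3K27ac in RXRKO, 969 bp lay at 4199391 to 4200359, 14.1 kb into the gene. The RXRKO H3K27ac peak there had an authors' fold over background of 3.45 and a -log10 q of 12.4, and no WT H3K27ac peak was called. H3K4me3 was called there in both genotypes, from 4199406 to 4200346 in RXRKO and from 4199892 to 4200296 in WT.
H3K4me1 peaks 970 and 1299 bp wide in RXRKO and 991 and 906 bp wide in WT covered the element, so the site was methylated in all libraries and called as acetylated in 1. Next to it, at 4198604 to 4198869, H3K4me1 was called over 265 and 264 bp in both RXRKO libraries and in neither WT library. Another such site, 9.17 kb into Ncor1 at 62448086 to 62448404, had H3K4me1 over 223 and 229 bp in RXRKO alone. With 1 H3K27ac library per genotype, the error of the difference at the element is not known.

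**Figure D4:**
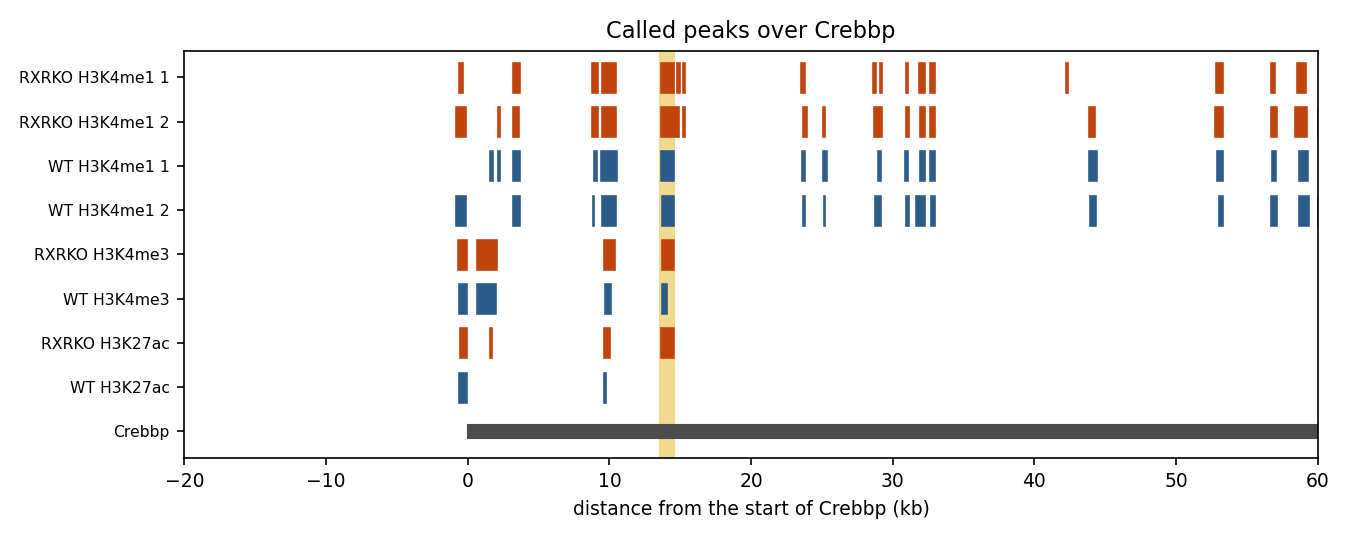
Called peaks from 20 kb before to 60 kb after the start of Crebbp in the 8 libraries, RXRKO in orange and WT in blue, against the distance from the start (kb). The grey bar is the gene, and the shaded band is the element with an H3K27ac peak in RXRKO and none in WT. H3K4me1 peaks of all 4 libraries overlap the element, and H3K4me3 covers 941 bp of its 969 bp in RXRKO and 405 bp in WT.

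Counted by region, H3K27ac over the coregulator genes was called in both genotypes for most regions, as it was over the whole genome. Of 101 merged regions, 71 were called in both genotypes (70.3%, against 63.2% of all regions), 13 in RXRKO alone (12.9%, against 13.0% of all regions) and 17 in WT alone (16.8%, against 23.9%). Ranked by -log10 q, the Crebbp element was followed in RXRKO by regions in Ncoa1 at 4401846 to 4402334 (8.36) and in Ncoa3 at 166041713 to 166041967 (7.80). In WT the first 3 in rank lay in Ncoa2 at 13342369 to 13342939 (5.66), in Nrip1 at 76323683 to 76323894 (5.57) and in Ncoa2 at 13352090 to 13352423 (5.48). Except for the last, which had H3K4me1 in WT replicate 2 alone, these regions had H3K4me1 in all 4 libraries. Regions called in 1 genotype had lower values, each taken as the highest over the libraries that called it, with a median -log10 q of 4.50 in RXRKO alone and 3.72 in WT alone, against 12.8 for the shared regions.

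**Figure D5:**
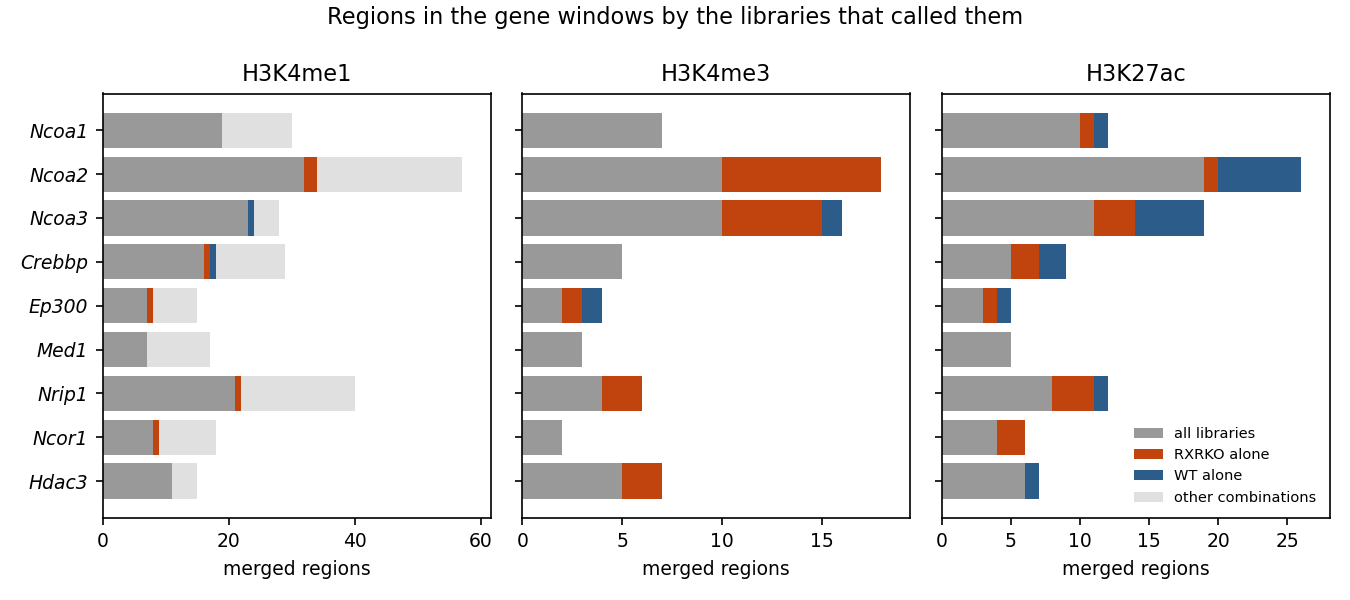
Number of merged regions (horizontal axes) in the window of each coregulator gene by the libraries that called them. Dark grey counts regions called in every library of the mark, orange those in RXRKO alone, blue those in WT alone and light grey other combinations of H3K4me1 libraries. Ncoa2 has the most regions for every mark, and the H3K4me3 regions of Ncoa1, Crebbp, Med1 and Ncor1 were all called in both genotypes.

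For H3K4me1, 249 merged regions lay in the windows and 144 were called in all 4 libraries (57.8%, against 61.8% of all regions). Calls in RXRKO replicates 1 and 2 but in neither WT replicate made up 6 of them (2.41%, against 2.17% of all regions), and calls in WT replicates 1 and 2 but in neither RXRKO replicate made up 2 (0.803%, against 1.94%). Beside the sites in Crebbp and Ncor1, the RXRKO regions lay in Ncoa2 at 13277759 to 13278117 and at 13331818 to 13332230, in Ep300 at 81588764 to 81589150 and in Nrip1 at 76297875 to 76298300. The WT regions lay in Crebbp at 4139264 to 4139552 and in Ncoa3 at 166018558 to 166019095, and at the second of these WT H3K27ac covered 299 bp and RXRKO H3K27ac 0 bp. All 8 lay inside the named gene, between 2.75 and 96.3 kb from its start, and their -log10 q stayed at 8.09 or less, against a median of 27.6 for the regions called in all 4. The counts in RXRKO alone and in WT alone became 33 and 3 without RXRKO replicate 1, 11 and 10 without RXRKO replicate 2, 16 and 20 without WT replicate 1, and 13 and 10 without WT replicate 2. Over all regions the shares in RXRKO alone and in WT alone moved too, to 11.4% and 3.59%, 4.52% and 5.31%, 4.71% and 7.16%, and 4.85% and 4.93% in the same order of libraries left out. Over Med1, no H3K4me1 region had both libraries of a single genotype alone, and no H3K4me3 or H3K27ac region was called in a single genotype.

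Several acetylated elements away from promoters were called in both genotypes. Away from starts here means more than 1 kb from the 1 start used for each gene. Regions near a RefSeq start other than the one used, as in Nrip1 and Crebbp, are therefore counted too. Of 82 such H3K27ac regions, 53 were called in both, and 48 of these had H3K4me1 in all 4 libraries. The same shares over all regions away from starts were not computed, so these counts show no trait particular to the coregulator genes. In Ncoa1 an element at 4278593 to 4280265, 198 kb into the gene, had 1476 bp of H3K27ac in RXRKO and 1616 bp in WT. Before Ncoa3, an element at 165982293 to 165983493, 9.74 kb upstream, had 1055 bp in RXRKO and 1173 bp in WT.
Both elements also carried H3K4me3, a mark more usual at promoters, in both genotypes, as did 26 of the 53 shared regions. Beyond the start of Ncor1, an element at 62466352 to 62467208 over the neighbouring gene Pigl had 794 bp of H3K27ac in RXRKO and 829 bp in WT, with H3K4me1 over 849 to 857 bp in every library. Nrip1, whose window holds no other gene, had 11 H3K27ac regions more than 1 kb from its outermost start, of which 7 were called in both genotypes. Of the 7, the one at 76370712 to 76372514 lay beside its second start, under the promoter's H3K4me3 peak and with no H3K4me1. Another, at 76341380 to 76342258, had 720 bp of H3K27ac in RXRKO and 879 bp in WT and was fully covered by H3K4me1 in all 4 libraries. These elements were named by their rank within the lists after the values were seen.

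Other coregulator genes, 50 in number and including further Mediator subunits, deacetylases and methyltransferases, gave no call in H3K4me1 either (limma, 0 higher and 0 lower, 3 at an unadjusted p under 0.05). Their median log2 difference was 0.02, and 29 lay above 0. Among values above 0, the lowest p-values belonged to Ncoa6, a coactivator of a methyltransferase complex, with 8127 and 9846 bp in RXRKO and 6756 and 6664 bp in WT (log2 0.31, SE 0.083, limma adjusted p = 0.472), and to Gps2, a subunit of the NCOR1 complex, at 0.21 (limma adjusted p = 0.802). In the other direction stood Arid1a of the SWI/SNF remodeller at −0.19 (limma adjusted p = 0.790) and the H3K27 demethylase gene Kdm6a at −0.14 (limma adjusted p = 0.969).
In H3K27ac, 0 of the 50 were past 1.5-fold. The highest were Med13 of the Mediator kinase module and Cited2, which encodes a CBP and p300 binding protein, both at 0.38, and the lowest were Tbl1x, a further NCOR1 complex subunit, with 4026 bp in RXRKO and 6892 bp in WT (log2 −0.57), and Kdm6a with 1896 bp in RXRKO and 3141 bp in WT (log2 −0.435). The genes whose differences between libraries lay nearest those of Crebbp were Insrr, Adcy2 and Dlx6, among 17062 genes. Their Euclidean distances were 0.083, 0.083 and 0.088, in centred log2 covered length minus each gene's mean within the mark. This distance compares differences between the 8 libraries and not how much of a mark a gene carries. As the 3 smallest among 17062 genes, these distances are low by selection, and no other distance is given here as a scale. Whether the 3 genes share anything with Crebbp was not tested.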

How the data were processed

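Peaks of H3K4me1, H3K4me3 and H3K27ac CUT&RUN libraries were analysed. The submitters' processing notes name cutadapt 1.7.1, Bowtie2 2.2.5, MACS3 and the build mm10, and the deposited lists hold 1 set of peaks per library. For a control library and duplicate handling, nothing is stated by the sources used here. The deposited lists give each peak's fold (a ratio to local background), −log10 p and −log10 q, and a score that is 10 times the −log10 q; these values, all made by the authors, were used only to describe, rank or filter peaks within a list. Depth is unknown, and a called length may move with it.

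From the deposited positions, the base pairs covered in the gene body plus 20 kb each side were computed with Python 3.11.15 for RefSeq genes (GRCm38.p6). Log2 of the length plus 1000 bp was centred on each library's median over genes with a mean of at least 1000 bp. H3K4me1 was tested with limma 3.58.1 (trend, Benjamini-Hochberg) without a block. The code was first run on simulated data. For the marks with 1 library per genotype, 1.5-fold was the call and no test was made. Regions are peaks of a mark merged where they overlap by at least 1 bp. The start of a gene was the 5' end where RefSeq gives a strand, and otherwise the end with more H3K4me3 within 2 kb, as for Ncoa2, Ncoa3 and Hdac3. Run tags in the peak names put the replicate 1 H3K4me1 libraries in one run and all others in another, so the replicate number pairs the genotypes by run; deviations of same-numbered libraries had a correlation of 0.212 over 17760 genes, which are no independent replicates. The genes, lists and tests were chosen with earlier results of these data known. The text names every coregulator gene, the H3K4me1 regions of 1 genotype, the 3 H3K27ac regions per genotype with the highest −log10 q, and, of 50 further genes, the 2 most extreme per direction in H3K4me1 and in H3K27ac. Alternatives covered windows, thresholds, peak numbers, centring, pseudocount, filter, overlap, the block and left-out libraries. The H3K4me3 values of the 50 further genes are not reported here.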

Additional observations from a re-analysis of the deposited data

How the results depend on the processing

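No coregulator gene passed the limma test of H3K4me1 under any of the 12 alternatives, the replicate block included, and the lowest adjusted p of any of them was 0.674. Over all genes the count of 0 became 2 with the replicate block, 2 at a -log10 q of at least 5, 65 with no centring and 204 with no filter on covered length, and it ran from 0 to 98 with 1 library left out (98 without RXRKO replicate 1, 88 without WT replicate 1, 13 without WT replicate 2). A lone library was taken to vary as the other genotype does. The block changed no other call. Small H3K4me1 differences changed sign: Crebbp to −0.0241 and Ep300 to −0.0862 at a -log10 q of at least 5, Ep300 to −0.12 with the same number of peaks, Med1 to −0.0322 and Ncor1 to 0.016 with a 5 kb window, and Ncor1 to 0.037 with a 50 kb window and 0.0463 with no centring. With 1 library left out, log2 differences ran from −0.014 to 0.066 for Ncoa2, −0.083 to 0.13 for Crebbp, −0.16 to 0.20 for Ep300, −0.18 to 0.22 for Med1 and −0.12 to 0.095 for Ncor1. The cause of these shifts was not tested. In H3K27ac, 1 coregulator gene (Crebbp) was past 1.5-fold at a -log10 q of at least 5 and 1 with a pseudocount of 100 bp. Genes past 1.5-fold higher and lower in H3K4me3 were 102 and 38 with lists of equal length, 448 and 51 with a pseudocount of 100 bp and 310 and 43 with no filter, and 11 were lower with a 5 kb window, against 185 and 18 as reported. In H3K27ac they were 513 and 761 with a pseudocount of 100 bp and 425 and 441 with no filter, and 427 were lower at a -log10 q of at least 5, against 200 and 284. H3K4me1 regions in RXRKO alone ran from 11 to 33 and in WT alone from 3 to 20 with 1 library left out, which leaves a genotype with 1 list. The 17 H3K27ac regions in WT alone became 11 (14.7%, against 24.2% of all regions) at a -log10 q of at least 5 and 7 (7.69%, against 17.8%) with the same number of peaks. The count of starts with a peak in all 8 libraries was 5 within 500 bp (44.5% of all genes) and 4 at a -log10 q of at least 5 (44.9%). Without read totals, absence of a peak cannot be told from low depth.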
